A study of Mus musculus with 2 samples.

Results

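The keratins Krt5, Krt14, Krt15, Krt4, Krt13, Krt20, Krt7, Krt8, Krt18 and Krt19 distinguish the layers of the urothelium, the epithelium that lines the ureter. They were selected by gene name, as all non-control probes on both arrays that carry one of these names, which gave 13 probes for 10 of the 30011 named genes on the array. The data come from ureters of NMRI wildtype mice at postnatal day 0, explanted and kept for 18 h either with 10 µM cyclopamine, an alkaloid that inhibits the SHH signal transducer SMO, or with solvent alone, given in the labels as DMF at 1:1000. RNA of a cyclopamine-treated pool and of a control pool was hybridised together on each of 2 two-colour Agilent arrays. Replicate 1 compared female pools with the control in the green channel (Alexa Fluor 555) and cyclopamine in the red channel (Alexa Fluor 647), and replicate 2 compared male pools with the dyes swapped. Each pool held several whole ureters, and the 2 arrays are the only replicates, so that sex, dye orientation and replicate cannot be told apart. One label of the treated channel names IWP-2, a blocker of WNT secretion, whereas titles, treatment entries and protocol name cyclopamine.

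Keratins are the intermediate filament proteins of epithelia. A filament is built from pairs of a type I and a type II keratin, and 4 of the genes (Krt4, Krt5, Krt7, Krt8) are type II and 6 (Krt13, Krt14, Krt15, Krt18, Krt19, Krt20) are type I. In the urothelium, Krt5 is known from basal cells and Krt14 and Krt15 from subsets of them, the partners Krt4 and Krt13 are used as keratins of intermediate cells, Krt20 marks the superficial cells that face the lumen, and Krt7, Krt8, Krt18 and Krt19 are found through the layers. SHH is secreted by this epithelium, and its receptor Ptch1 and its effector Gli1 respond mainly in the surrounding mesenchyme. The comparison asks whether 18 h of SMO inhibition changed the keratin transcripts of the layers.

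The array reads each gene through 60-base probes, and the following are shown for members that stand out below. Krt8 and Krt18 had 2 of the 3 highest mean ratios, and the main probes of Krt13, Krt14 and Krt15 had opposite signs on the arrays. For Krt8 the main probe, on which its mean ratio rests, is not shown. The array annotation places them on mouse build mm9 and gives no exon or UTR. The Krt8 probe shown, the dimmer of its pair, lies at chr15:101828827-101828886 on the minus strand, and the Krt18 probe at chr15:101862341-101862400 on the plus strand, of which the bases up to 101862392 are shown. Krt13 lies at chr11:99982471-99982530, Krt15 at chr11:99993331-99993390 and Krt14 at chr11:100064683-100065288, all on the minus strand. The 60 bases of the Krt14 probe spread over 606 bases of the genome, so that it crosses a splice junction. Capitals mark in Krt13 the stretch that codes for the conserved start of the helical rod of the protein, and in Krt15 and Krt18 the stop codon.
Krt8: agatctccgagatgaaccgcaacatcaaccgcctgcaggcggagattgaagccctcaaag
Krt18: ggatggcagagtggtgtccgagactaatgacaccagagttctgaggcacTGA
Krt13: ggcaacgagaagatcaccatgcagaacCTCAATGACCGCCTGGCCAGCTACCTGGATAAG
Krt14: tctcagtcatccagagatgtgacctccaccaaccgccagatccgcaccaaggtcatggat
Krt15: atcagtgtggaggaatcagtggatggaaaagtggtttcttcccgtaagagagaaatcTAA
Although keratins are a family of related genes, the longest stretch that probes of different members had in common was 9 bases. A stretch of at least 15 bases shared with a probe of any other gene was found for 1 of the 13 probes only, the brighter Krt8 probe, with 15 bases.

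None of the 10 keratins passed the test for a change after 18 h of cyclopamine. In a limma fit over 25975 probes, 0 of 10 were called lower (background 0.770% of tested probes) and 0 of 10 were called higher (background 0.454%) at an adjusted p under 0.05, and 0 had an unadjusted p under 0.05 (background 9.05% of tested genes). A filter after that of the study, control intensity over 100 and, as applied here, at least 1.5-fold the same way on each array, was passed by 0 of the 9 members over the intensity limit and by 0.842% of all 13661 genes over it. SHH targets served as the check of the treatment, and of 6 measured 5 were called lower: Gli1, Ptch1, Foxf1 (mean log2 ratio −0.98), Foxl1 (−2.61) and Hhip (−1.15, with −0.31 on replicate 1 and −1.99 on replicate 2). Gli1 fell from an intensity of 7771 to 2182 on replicate 1 and from 1236 to 290 on replicate 2 (log2 ratio −1.96 ± 0.18, SD, n = 2, limma adjusted p = 1.76e-08), and Ptch1 fell from 785 to 360 and from 207 to 73.7 (−1.31 ± 0.25, SD, n = 2, adjusted p = 0.000248). Intensities were 5.32 times higher on replicate 1 at the 75th percentile of the control channels, so that channels are compared within an array only. All spots used of all 13 keratin probes were flagged well above background in all 4 channels, and no spot was saturated.

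**Figure D1:**
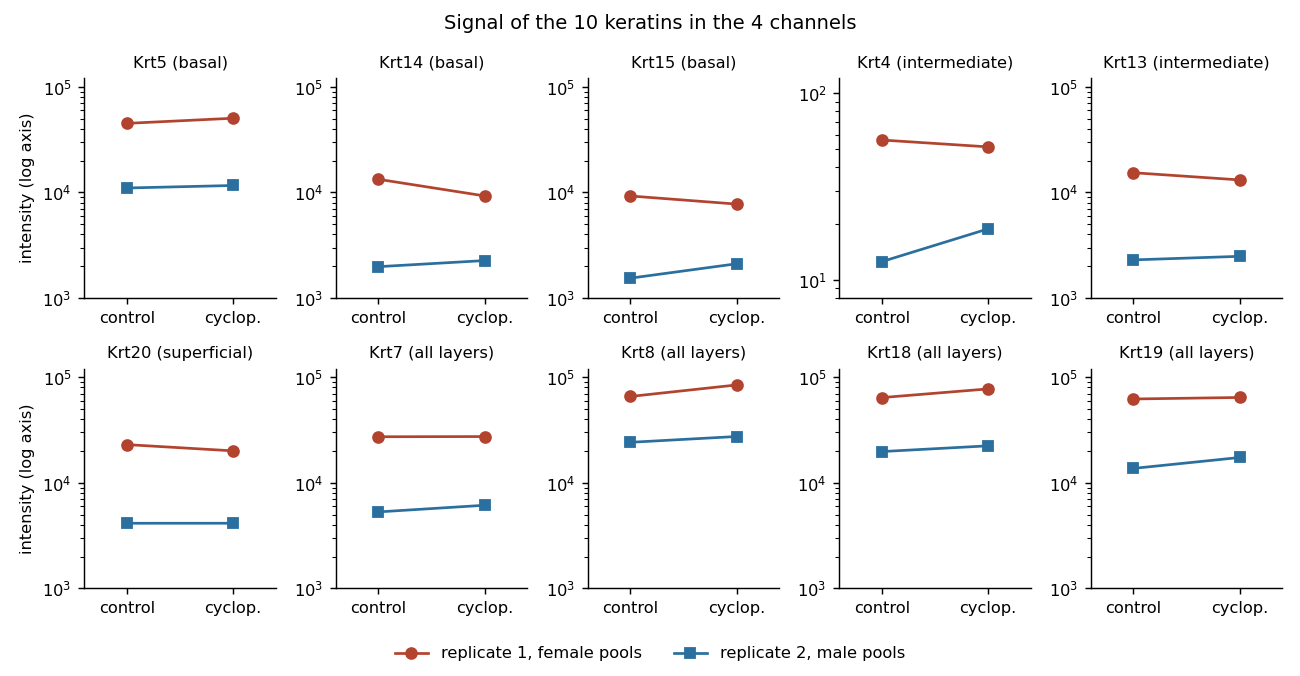
Intensity (log axis) of the main probe of each keratin in the control and the cyclopamine channel of both arrays; circles are replicate 1 (female pools), squares replicate 2 (male pools), and each line joins the channels of an array. The Krt4 panel has its own, lower axis. Lines are close to level throughout, and for Krt14, Krt15, Krt4 and Krt13 they fall on replicate 1 and rise on replicate 2.

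Among the basal keratins, Krt5 moved little and Krt14 and Krt15 went opposite ways on the arrays. Krt5, the type II keratin of basal cells, went from an intensity of 45030 in the control to 50372 with cyclopamine on replicate 1, and from 10998 to 11621 on replicate 2. It was slightly higher with cyclopamine on both arrays, with log2 ratios of 0.16 and 0.08 (mean 0.12 ± 0.06, SD, n = 2, limma adjusted p = 0.903). A second Krt5 probe gave 0.07 and 0.15. Krt14, a partner of Krt5 in a subset of basal cells, went from 13297 to 9246 on replicate 1 and from 1978 to 2260 on replicate 2. The log2 ratios of −0.52 and 0.19 lay on either side of 0, and the mean of −0.17 ± 0.51 (SD, n = 2, adjusted p = 0.862) was the lowest of the members. Krt15, a type I keratin of basal cells in many stratified epithelia, went from 9244 to 7746 on replicate 1 and from 1538 to 2106 on replicate 2. Its log2 ratios were −0.26 and 0.45 (mean 0.10 ± 0.50, SD, n = 2, adjusted p = 0.927). The gap between the arrays was 0.72 for Krt14 and 0.71 for Krt15, and 11.3% of tested genes had a wider gap than Krt14. The median over the 3 basal keratins was −0.26 on replicate 1 and 0.19 on replicate 2.

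The intermediate cell pair showed the same split. Krt13, the type I partner, went from 15348 to 13114 on replicate 1 and from 2293 to 2479 on replicate 2, with log2 ratios of −0.23 and 0.11 (mean −0.06 ± 0.24, SD, n = 2, limma adjusted p = 0.959). The second Krt13 probe, which lies 3′ of the first in the transcript, gave −0.44 and 0.36, and thus the same sign on each array at a larger size. That probe was far dimmer, with control intensities of 359 on replicate 1 and 36.4 on replicate 2, the latter under 100. Krt4, the type II partner, went from 56.1 to 51.6 on replicate 1 and from 12.5 to 18.8 on replicate 2. It was the member with control intensities under the limit of 100, on both arrays, and its spots spread most, with SDs of 0.12 and 0.23. The log2 ratios of −0.12 and 0.58 gave a mean of 0.23 ± 0.50 (SD, n = 2, adjusted p = 0.794). The value on replicate 2 was the highest single ratio of any member and lay just under the 1.5-fold limit, and replicate 1 had the opposite sign.

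The superficial cell keratin had ratios near 0 and did not pass the test. Krt20, the type I keratin of the luminal cells, went from 22999 to 20059 on replicate 1 and measured 4136 and 4138 on replicate 2. The log2 ratios were −0.20 and 0.00 (mean −0.10 ± 0.14, SD, n = 2, limma adjusted p = 0.926). The uroplakins, membrane plaque proteins of the same cells, all passed the background filter. Upk2 had ratios of 0.05 and −0.09 (adjusted p = 0.988), Upk3a of 0.15 and 0.13 (adjusted p = 0.884) and Upk1b of 0.30 and 0.25 (adjusted p = 0.740). Upk1a with −0.08 and 0.03 and Upk3b with −0.13 and 0.11 were lower on replicate 1 and higher on replicate 2, the signs of Krt20. Of the 5 uroplakins, 0 were called by limma and 0 passed the study filter, with a median log2 ratio of −0.01 (all tested genes −0.01).

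The keratins of all layers were slightly higher with cyclopamine on both arrays, 4 of 4 beside 28.6% of all tested genes, without passing the test. The basal keratin Krt5 was higher on both arrays too, with 0.16 and 0.08. Krt8, the type II keratin of simple epithelia, went from 65683 to 84466 on replicate 1 and from 24167 to 27439 on replicate 2. Its log2 ratios of 0.36 and 0.18 (mean 0.27 ± 0.13, SD, n = 2, limma adjusted p = 0.742) were the highest mean of the members, and the second probe gave 0.39 and 0.19. Krt18, its type I partner, went from 64124 to 77497 and from 19755 to 22390, with log2 ratios of 0.27 and 0.18 (mean 0.23 ± 0.07, SD, n = 2, adjusted p = 0.792). The 2 partners had similar ratios, that of Krt8 above that of Krt18 by 0.09 on replicate 1 and by 0.00 on replicate 2. Krt19, a type I keratin without a fixed partner, went from 62202 to 64284 and from 13685 to 17372 (log2 ratios 0.05 and 0.34, mean 0.20 ± 0.21, SD, n = 2, adjusted p = 0.827). Krt7, a type II keratin of ducts and of the urinary tract, measured 27293 and 27407 on replicate 1 and 5299 and 6127 on replicate 2 (log2 ratios 0.01 and 0.21, mean 0.11 ± 0.14, SD, n = 2, adjusted p = 0.915). In RNA of whole ureters, more epithelial cells and more RNA per cell cannot be told apart.

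**Figure D2:**
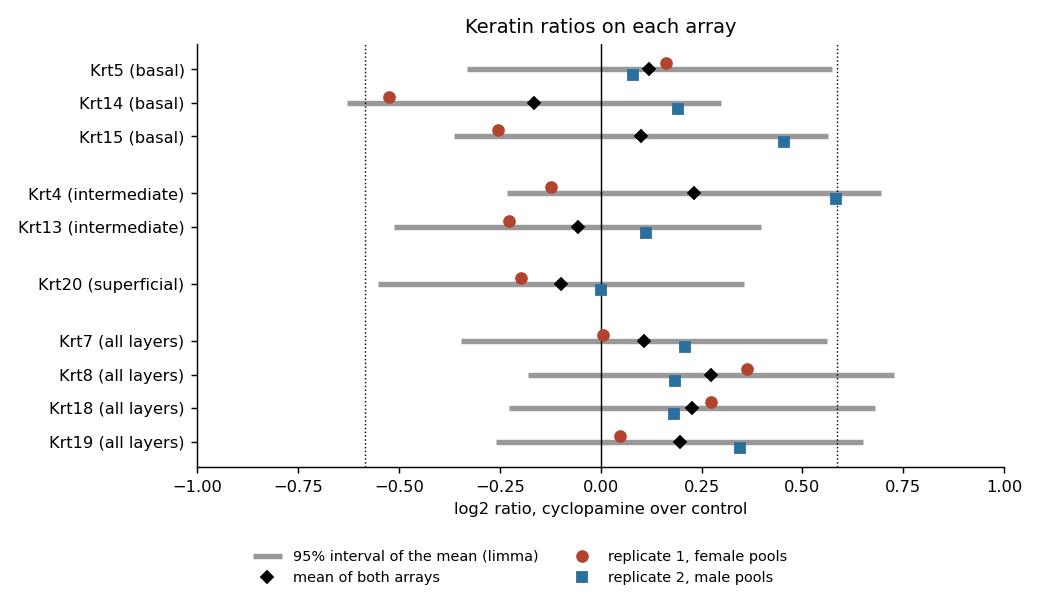
Log2 ratio of cyclopamine over control for each keratin, grouped by layer; circles are replicate 1, squares replicate 2, diamonds their mean, and grey bars the 95% interval of the mean from limma. Dotted lines mark a change of 1.5-fold; all 10 intervals include 0, and no single array value lies beyond a dotted line.

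Across the main probes, the 95% intervals of the mean reached from 0.646-fold (lower limit of Krt14) to 1.65-fold (upper limit of Krt8). For each member, changes inside its own interval are not excluded. The intervals are unadjusted and give no detection limit for the calls, which used adjusted p. Interval width comes mostly from the spread that limma pools over all probes, since a probe has 1 residual degree of freedom. The mean ratios of the 10 keratins lay between −0.17 and 0.27 with a median of 0.11, beside −0.01 for all tested genes, of which 30.9% had a mean further from 0 than any member.

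On replicate 2 all 10 were at or above 0 (49.9% of tested genes were above 0), between 0.00 and 0.58 with a median of 0.19. On replicate 1, 5 of 10 were above 0 (50.2% of tested genes were below 0), between −0.52 and 0.36 with a median of −0.06. Counted over both arrays, 5 of 10 were higher on both (background 28.6% of 19397 tested genes), 0 of 10 were lower on both (background 28.9%), and 5 of 10 were lower on replicate 1 and higher on replicate 2 (background 21.3%). The median size of the gap between the arrays was 0.25 for the keratins and 0.30 for all tested genes. The 4 type II keratins had a median mean ratio of 0.18 and the 6 type I keratins of 0.02. Between the basal partners, the ratio of Krt5 exceeded that of Krt14 by 0.69 on replicate 1, and on replicate 2 the difference was −0.11. The difference of Krt4 from Krt13 was 0.10 on replicate 1 and 0.47 on replicate 2.

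**Figure D3:**
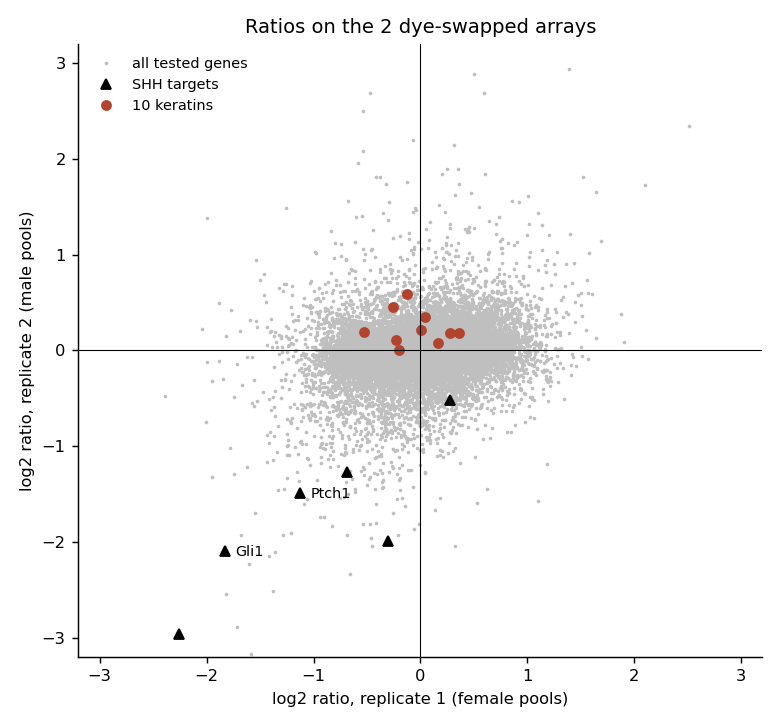
Log2 ratio of cyclopamine over control on replicate 1 (horizontal) and replicate 2 (vertical) for all tested genes (grey dots), the 10 keratins (red circles) and 6 SHH target genes (triangles); axes end at 3.2 in either direction. The keratins lie within the central cloud, all at or above 0 on the vertical axis, while Gli1 and Ptch1 lie far out at the lower left.

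Gene length moved with the ratios on replicate 1. Over 22468 probes of genes with a known length, Spearman's rho between length and log2 ratio was 0.44 on replicate 1 and 0.03 on replicate 2, a description across genes, which are not independent replicates. The keratin genes are short, between 3.81 kb (Krt18) and 15.4 kb (Krt7), 9 of 10 under 10 kb. Tested genes under 5 kb had a median of −0.29 on replicate 1 and −0.05 on replicate 2. Krt13 and Krt15, both in this class, lay near that median on replicate 1 with −0.23 and −0.26, Krt14 lay below it and Krt18 with 0.27 above it. For genes of 5 to 10 kb the median on replicate 1 was −0.17, against which Krt20 with −0.20 and Krt4 with −0.12 were close, and Krt5, Krt19 and Krt8 lay higher.

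After the length trend had been removed on each array, 8 of 10 keratins were higher with cyclopamine on both arrays (background 30.8% of 16016 tested genes with a length), and their median mean ratio was 0.25. Krt15 then had 0.02 and 0.48, Krt4 0.11 and 0.60, and Krt13 0.05 and 0.14, so that the mean of Krt13 turned from −0.06 to 0.09. Krt14 kept opposite signs with −0.25 and 0.22, and Krt20 had −0.02 and 0.00. The keratins of all layers had a median of 0.43 on replicate 1, up from 0.16 before. The test still called 0 of 10, and the lowest limma adjusted p was 0.462, for Krt18.

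**Figure D4:**
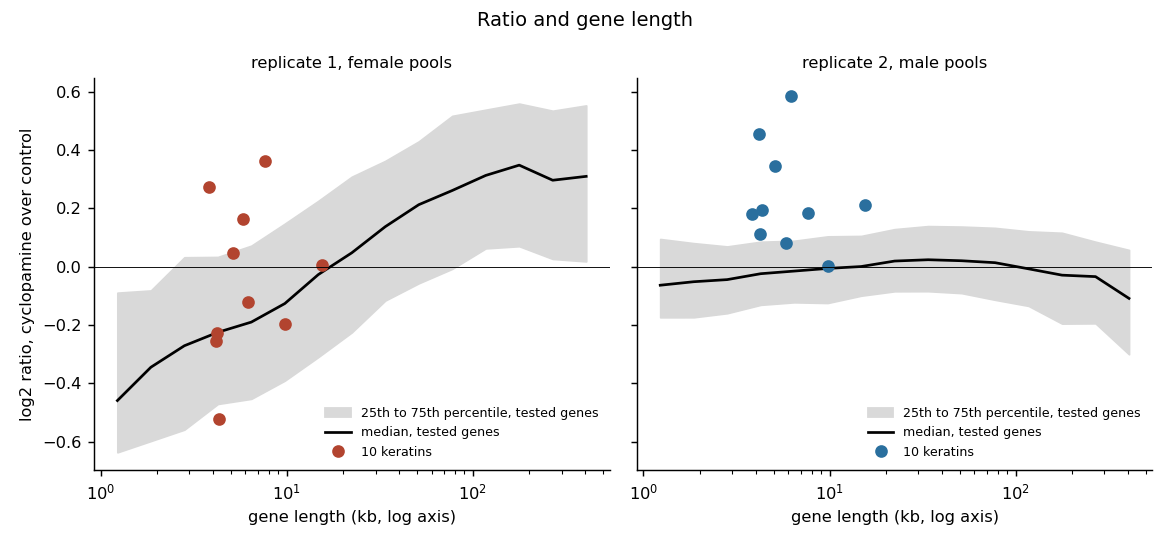
Log2 ratio of cyclopamine over control against gene length (kb, log axis) for replicate 1 (left) and replicate 2 (right); the line is the median and the band the 25th to 75th percentile of tested genes in bins of length, and dots are the 10 keratins. On replicate 1 the median climbs with length and the short keratin genes lie in its lower part, whereas on replicate 2 it is nearly flat and the keratins lie at or above it.

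Other epithelial genes stood beside the keratins as follows. Keratin filaments end at desmosomes and hemidesmosomes, and of 17 genes of these junctions 15 were higher on both arrays (28.6% of all tested genes were) and 0 lower on both, with a median log2 ratio of 0.39 (0.49 on replicate 1 and 0.21 on replicate 2). None was called by limma or passed the study filter, and 6 of 17 had an unadjusted p under 0.05, beside 9.05% of all tested genes. Of 7 transcription factors of the urothelium, 7 were higher on both arrays, again beside 28.6% of all tested genes, with a median of 0.30. None was called (background 0.454% higher), and 1 had an unadjusted p under 0.05. Trp63, the basal cell regulator among them, went from 8627 to 13817 and from 2605 to 3101 (log2 ratios 0.68 and 0.25, limma adjusted p = 0.520). Of 10 general epithelial genes, 6 were higher on both arrays with a median of 0.23, and 0 were called. Among these, Cdh1, the epithelial cadherin, had 0.34 and 0.21 (adjusted p = 0.740), and the surface adhesion protein gene Epcam had −0.13 and 0.36 (adjusted p = 0.911), a sign split like that of Krt15.

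Keratins outside the urothelial set were measured through 44 further genes, of which 22 were tested. None of the 22 was called and none passed the study filter, with 4 at an unadjusted p under 0.05 (background 9.05%) and a median log2 ratio of −0.04. They were lower on replicate 1 and higher on replicate 2 in 11 of 22 cases (background 21.3% of tested genes). They were lower on both arrays in 7 (background 28.9%) and higher on both in 3 (background 28.6%). Of 16 genes of stratified squamous epithelium, 15 were on the array and 12 tested, with a median of −0.30 that rests on replicate 1, where it was −0.58, against 0.02 on replicate 2. Their summed intensity changed by −0.04 and 0.07 on the log2 scale. Most of it came from Sprr1a, with 93929 of 123750 in the control of replicate 1 and 31443 of 37264 on replicate 2. Some members had ratios above 0 on both arrays, among them Ivl with 0.26 and 0.28, named after its values were seen. Krtdap, a protein of differentiating keratinocytes, was the member of that list that was called: it fell from 1050 to 445 on replicate 1 and from 117 to 61.4 on replicate 2 (log2 ratio −1.08 ± 0.22, SD, n = 2, limma adjusted p = 0.00356).

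Markers of the other tissues in the explant moved differently on the arrays. The summed intensity of 7 smooth muscle genes changed by −0.16 on the log2 scale on replicate 1 and by −0.73 on replicate 2, and Actg2, an enteric type smooth muscle actin, fell on both (−0.90 ± 0.27, SD, n = 2, limma adjusted p = 0.0251). The sum over 6 fibroblast genes changed by 0.61 and −0.31, that over 5 endothelial genes by 0.65 and −0.19, and that over 5 leukocyte genes by 0.11 and −0.10. It was −0.57 and 0.25 for 5 genes of glia and neurons, and 0.04 and 0.31 for 3 mesothelial genes. Aldh1a2 and Thy1, both fibroblast genes, passed the study filter as lower (mean log2 ratios −0.64 and −0.81) without being called by limma (adjusted p = 0.218 and 0.0580). Of 8 kidney genes, 2 were tested and 6 were not well above background. The part of these shifts in the keratin ratios was not tested.

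**Figure D5:**
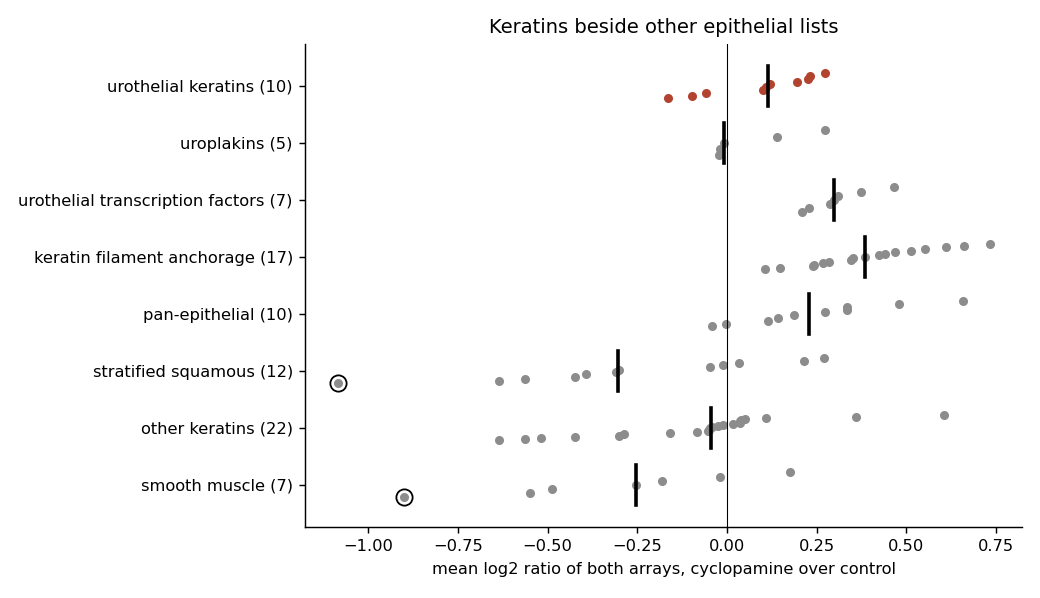
Mean log2 ratio of both arrays, cyclopamine over control, for the urothelial keratins (red) and for tested genes of 7 other lists (grey), with the number of genes in brackets; vertical bars are medians and open rings mark genes with a limma adjusted p under 0.05. The keratin median is 0.11, between 0.39 for the junction genes that anchor keratin filaments and −0.30 for the squamous genes (−0.58 on replicate 1 and 0.02 on replicate 2), where Krtdap is ringed. The gene length trend is not removed here. With it removed, medians on replicates 1 and 2 were 0.10 and 0.20 for the keratins and 0.40 and 0.17 for the junction genes. They were 0.26 and 0.12 for the uroplakins and −0.34 and 0.03 for the squamous genes.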

How the data were processed

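Scanner files of the 2 arrays were used. Per the file headers, the deposited spot intensity values of each channel were made with Agilent Feature Extraction 12.2.0.7 (the submitters' processing notes name 10.7.3.1) and had been background-subtracted, detrended and dye-balanced within the array. The authors' deposited series table holds a score per probe, which its values show to be a signed fold of cyclopamine over control, and this table was an alternative. A deposited log10 ratio, red over green, served to find the direction of that table. The spot flags (score 0 or 1) are deposited software output as well.

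Control spots and outlier spots (2.89% and 3.15%) were left out, the others, at most 4 a probe, were averaged as log2 values, and each ratio was set as cyclopamine over control. The probe brightest over the 4 channels stood for a gene. Names and gene lengths came from RefSeq (GRCm38.p6; 28328 of 39429 probes matched), positions from the array annotation. limma 3.58.1 in R 4.3.3 fitted the dye orientation as +1 and −1 without intercept over 25975 probes with at least 0.5 of spots well above background in the control or the cyclopamine channel on both arrays, with Benjamini-Hochberg adjustment. Intervals are 95% and unadjusted, two-sided. The fit was tested on simulated data. Both arrays share a slide and a scan. Whether pools were cultured separately is only given as independent pools. The p-values rest on differences between 2 arrays, whose number limits the precision, and on a spread that limma pools mostly over all probes.

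The members, role groups and marker lists were chosen with earlier results of these data known. By rule the text names all members, listed genes called or past the study filter, and Trp63, Upk1b, Upk2, Upk3a, Cdh1, Epcam, Gli1 and Ptch1. Named outside that rule are Upk1a, Upk3b, Sprr1a, Ivl, Krt17, Krt16, Krt10, Krt6a, Krt6b, Krt72, Krt36 and Krt80. None of these was called or passed the filter, and Ivl and the keratins among them were picked after their values were seen. The study filter is an approximation: the study states limits on control intensity and fold, its gene table lists intensities on another scale than the processed signals used here, and requiring both limits on each array was a choice made here. Tried as alternatives were the series table, 2 normexp offsets, other filters, other spot and probe summaries, an intensity trend, the 4 channels as separate samples, removal of the length trend, leaving out an array and other limits of the study filter.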

Additional observations from a re-analysis of the deposited data

Results flagged for a closer look

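Of the 10 keratins, 5 had ratios of opposite sign in the female pools (replicate 1) and the male pools (replicate 2). Each of the 5 was lower with cyclopamine in the female pools. Of 19397 tested genes, 8227 had opposite signs, and 21.3% were lower on replicate 1 and higher on replicate 2. The log2 ratio in female pools minus that in male pools was −0.72 for Krt14, −0.71 for Krt15, −0.71 for Krt4, −0.34 for Krt13 and −0.20 for Krt20. The medians had opposite signs too, with a difference of −0.45 for the basal keratins, −0.52 for the intermediate keratins and −0.25 for all 10. These differences were not tested, since a single array per sex gives no spread, and sex, dye orientation and replicate cannot be told apart. The value of Krt20 in male pools was 0.00, so its sign there carries little. With the gene length trend removed, Krt15 (0.02 and 0.48), Krt4 (0.11 and 0.60) and Krt13 (0.05 and 0.14) were above 0 on both arrays. Krt14 and Krt20 kept opposite signs.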

How the results depend on the processing

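Under 10 alternatives with a test (100 member values), 0 keratins were called lower or higher and 0 had an unadjusted p under 0.05, with a lowest adjusted p of 0.462. Of these values 1 changed direction, Krt13, whose mean was 0.094 with the gene length trend removed. No member passed the study filter under any of 12 alternatives. The median of the keratins lay between −0.06 and 0.19 when an array was left out, so that its sign rests on replicate 2 in the main processing. With the length trend removed the median was 0.25, and it was above 0 on each array (0.10 on replicate 1 and 0.20 on replicate 2). Calls over all probes, 200 lower and 118 higher, depended more on the processing: 42 and 12 with a normexp offset of 50, 125 and 55 with an offset of 10, 131 and 81 with the median of spots, 261 and 216 without the filter on dim probes, 309 and 259 with the length trend removed, and 0 and 0 with the series table or with the 4 channels as separate samples. The cause was not tested. The main fit already pairs each cyclopamine pool with the control pool of its array, and the 4 channels as separate samples, with no replicate block, are the unpaired fit. Krt4 had control intensities of 56.1 and 12.5, and its ratio is the least precise over spots.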

Other observations

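Values of 5 other keratins follow, picked after their values were seen, all of them below 0 on replicate 1, where tested genes under 5 kb had a median of −0.29. Krt17 went from 2584 to 1132 on replicate 1 and from 522 to 545 on replicate 2 (log2 ratios −1.19 and 0.06, limma adjusted p = 0.399). Krt16 went from 3775 to 1871 and from 1006 to 841, with ratios of −1.01 and −0.26 (adjusted p = 0.238), and Krt10 had −0.71 and −0.13 (adjusted p = 0.587). Krt6a and Krt6b, close paralogs whose probes may read each other's transcripts, had −0.51 and 0.41, and −0.51 and 0.48. None of these 5 was called, and all but Krt10 are genes under 5 kb. Of the 22 other keratins tested, 7 were lower on both arrays and 3 higher on both. Among the latter, Krt72 had 0.92 and 0.29, from dim control intensities of 8.21 and 8.13, and Krt36 had 0.48 and 0.24. Krt80 had −0.12 and −0.91. These 3 were not called either.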
